A study of Rattus norvegicus with 6 samples.

Results

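A group of 9 genes was placed at the centre of the comparison: 7 classical targets of the transcription factor NRF2 (Hmox1, Nqo1, Gclc, Gclm, Txnrd1, Srxn1 and Slc7a11) and the metallothioneins Mt1 and Mt2A. They were taken by gene symbol, and 9 of the 17833 genes in the expression table matched. Expression was measured by bulk RNA-seq of pulmonary veins (PVs) from 3 rats whose veins were banded on both sides (bilateral pulmonary vein banding, BPVB) and from 3 sham controls. All 6 were wild type Sprague-Dawley rats operated on at postnatal day 1 and killed at postnatal day 21, and the PVs came from the right upper lobe. Sham rats went through the same opening of the chest with no band left on the veins, so both groups share anesthesia by cooling and surgery. The text that describes the series as a whole abbreviates the operation as PAB, while every sample label names pulmonary vein banding, and the sample labels were followed. They give neither sex nor litter. Each library is 1 rat, and a whole piece of vein was sequenced, so that a lower level in a group can mean fewer cells of a type or less RNA per cell, which bulk samples cannot tell apart.

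NRF2, encoded by Nfe2l2, is held at a low level by KEAP1, which hands it to a CUL3 ubiquitin ligase. Oxidants and electrophiles modify KEAP1, NRF2 then accumulates, pairs with small MAF proteins and binds antioxidant response elements, from which BACH1 keeps genes such as Hmox1 silent until heme removes it. Metallothioneins are small cysteine-rich proteins that hold zinc and copper, and their genes are driven by the zinc sensor MTF1 at metal response elements, with further control by glucocorticoids and by oxidative stress.

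The library totals were 23439506 to 29725808 fragments, of which 99.78% lay on the genes in the expression table. Myl7, the atrial myosin light chain of the myocardial sleeve that covers the veins, reached 5217 to 5515 FPKM (fragments scaled by gene length and library total) in the BPVB group and 8084 to 8217 FPKM in the sham group. Acta2 of smooth muscle and Pecam1 of endothelium were also present in every library, at 1467 to 1704 FPKM and 247 to 286 FPKM. RNA of alveolar cells was present as well: Sftpc, a surfactant protein of alveolar type 2 cells, lay at 367 to 409 FPKM in the BPVB group against 35.0 to 37.6 FPKM in the sham group. Of 10 alveolar type 2 markers, 9 were higher in the BPVB group, with a summed level of 568 to 613 FPKM against 71.6 to 74.8 FPKM.

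Of the 8 members that passed the filter on low expression (a mean of at least 0.1 FPKM), 5 were higher in the BPVB group, 0 were lower and 3 did not pass the test. The ninth, Slc7a11, was below the filter and is described with the glutathione genes. The test was limma on log2(FPKM + 0.5), two-sided, at an adjusted p of 0.05 over 15150 genes, among which 17.2% were higher and 14.3% lower. Hmox1, Mt2A and Srxn1 also passed the 2-fold limit of a differentially expressed gene (DEG) in the upward direction, which 2.24% of all tested genes did. In 6 of the 8, the 3 BPVB values lay above the 3 sham values, beside 25.2% of all tested genes. The median log2 fold change of the 8 members was 0.61, and that of all tested genes was 0.02. The set was uneven: Hmox1 rose 4.48-fold, whereas both subunits of glutamate-cysteine ligase and Nqo1, a standard reporter of NRF2 activity, stayed within 1.04 to 1.11 times the sham mean and were not called.

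**Figure D1:**
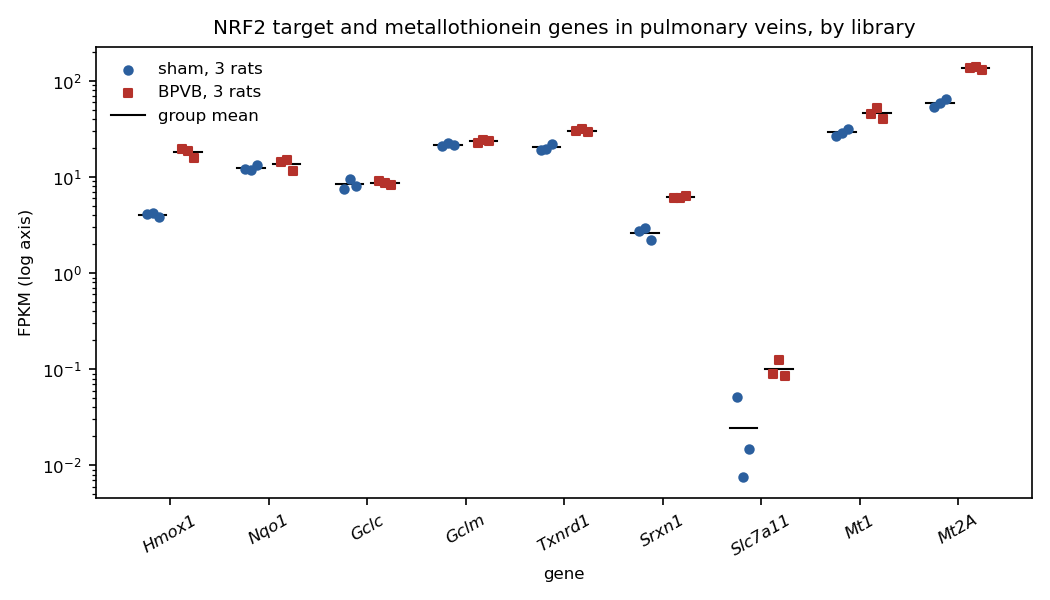
Expression of the 9 members in each library, in FPKM on a log axis, with sham libraries as blue circles, BPVB libraries as red squares and group means as black bars. The groups stand apart for Hmox1 (15.9 to 19.7 against 3.80 to 4.26 FPKM), and they overlap for Nqo1 and Gclc.

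**Figure D2:**
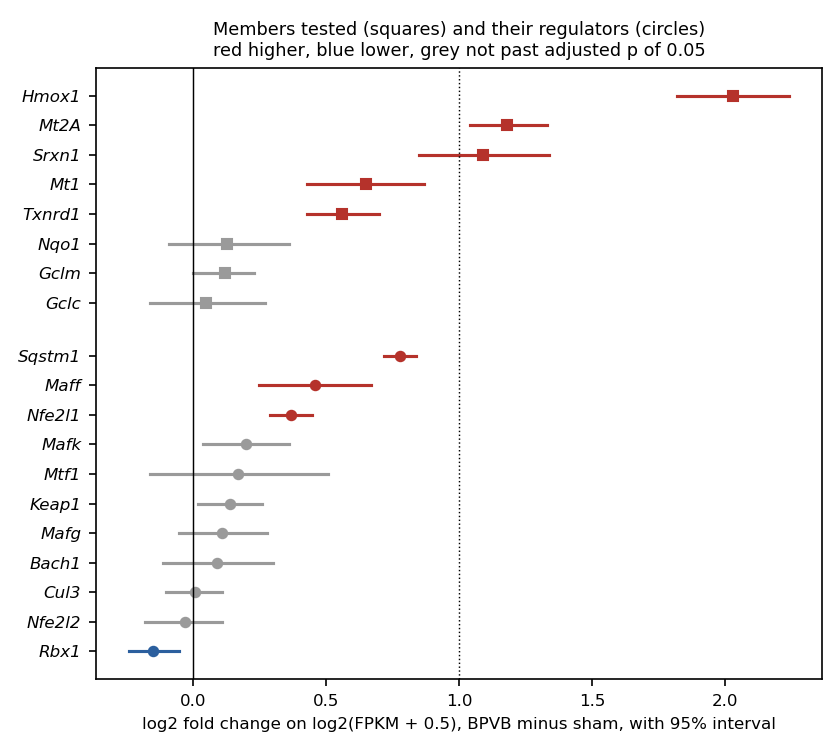
Log2 fold change of BPVB minus sham with its 95% interval (limma) for the 8 tested members, as squares, and 11 regulators, as circles. Red marks genes that were higher and blue those that were lower at an adjusted p of 0.05, and the dotted line marks a log2 fold change of 1, which Hmox1, Mt2A and Srxn1 passed.

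Hmox1 (NCBI Gene 24451) encodes the inducible heme oxygenase, which opens the heme ring and releases iron, carbon monoxide and biliverdin. Its level was 19.7, 18.8 and 15.9 FPKM in the 3 BPVB libraries and 4.08, 4.26 and 3.80 FPKM in the 3 sham libraries, from 971 to 1080 and from 186 to 205 fragments. No BPVB value came near the sham range. The log2 fold change was 2.03 (95% interval 1.82 to 2.24, adjusted p = 7.7e-07, limma), the largest among the 8 members tested on this scale, which leaves out Slc7a11, and the 53rd largest rise of the 15150 genes. In the RefSeq annotation Hmox1 overlaps a locus that has no gene symbol of its own, and the strand setting of the counting is not given in the sources used here.

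Hmox2, the constitutive heme oxygenase, was at 21.1, 19.9 and 19.3 FPKM in the BPVB group and 21.2, 21.6 and 21.9 FPKM in the sham group, a log2 fold change of -0.10 that was not called (adjusted p = 0.17, limma). Per unit of length, Hmox1 was thus well below Hmox2 in every sham rat, and in the BPVB rats it approached it. Of the next steps of the pathway, biliverdin reductase Blvra (-0.14) was called only without sham replicate 3 (-0.23, adjusted p = 0.037, limma), and Blvrb (0.01) was not called. Ferritin stores the iron released, and its light chain Ftl1 rose (log2 fold change 0.30, adjusted p = 6.1e-04, limma) while its heavy chain Fth1, with 2437 to 2610 FPKM over all libraries, had a log2 fold change of -0.05 (adjusted p = 0.14, limma). The iron exporter Slc40a1 had a log2 fold change of -0.10 and was not called. In the list of heme and iron genes, 7 of 21 tested genes were higher and 2 lower, and the median of the list was 0.01 (log2). The largest rise was that of ceruloplasmin, Cp, a copper-carrying ferroxidase, with 45.4 to 45.9 FPKM against 16.9 to 19.0 FPKM. The transferrin receptor Tfrc, through which cells take up iron, fell from 10.9 to 12.3 FPKM in sham rats to 5.04 to 5.85 FPKM. The hemoglobin-binding protein haptoglobin, Hp (0.46), and the first enzyme of heme synthesis, Alas1 (-0.15), passed the test, but each lost the call when a single library was left out. For Hp these were BPVB replicates 1 and 2 and sham replicates 2 and 3 (adjusted p = 0.059 to 0.073, limma), and limma-voom on the recovered fragments did not call it either (0.49, adjusted p = 0.071). For Alas1 they were BPVB replicates 1 and 2 and sham replicates 1 and 3 (adjusted p = 0.06 to 0.099, limma).

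Macrophage and alveolar type 2 markers were higher in the same libraries as Hmox1. All 13 tested macrophage markers were higher in the BPVB group, with a median log2 fold change of 0.70 and a summed level of 733 to 754 FPKM against 257 to 265 FPKM, and none was at 0. Cd68 was at 8.92 to 10.3 FPKM in the BPVB group and 3.47 to 5.12 FPKM in the sham group, and Lyz2 at 574 to 604 FPKM against 159 to 167 FPKM. Cd163, the macrophage receptor for hemoglobin bound to haptoglobin, counted in the heme and iron list and picked out here after its values were seen, was not called (-0.07, adjusted p = 0.74, limma). The alveolar type 2 markers had a median log2 fold change of 2.68. Markers of red cells, the source of most heme, were lower or not called: 0 of 10 were higher and 4 were lower, or 8 lower with limma-voom on the recovered fragments, and their summed level of 13748 to 17512 FPKM in the BPVB group overlapped the 16801 to 20459 FPKM of the sham group. The part of these cell types in the level of Hmox1 or of the other members was not tested.

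Srxn1 and Txnrd1 belong to the thiol system that returns oxidized cysteines to their reduced state. Srxn1 (NCBI Gene 296271), sulfiredoxin, rescues peroxiredoxins that have been over-oxidized by peroxide. It was at 6.08, 6.06 and 6.30 FPKM in the BPVB group and at 2.72, 2.96 and 2.20 FPKM in the sham group. The groups did not overlap, and the BPVB rats (6.15 ± 0.13 FPKM, mean ± SD of 3) were spread less than the sham rats (2.63 ± 0.39 FPKM, mean ± SD of 3). The log2 fold change was 1.09 (95% interval 0.85 to 1.34, adjusted p = 9.7e-05, limma). It stayed called under every alternative tried, but fell just under the 2-fold limit with a pseudocount of 1 (0.98) and without sham replicate 3 (0.99).

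Txnrd1 (NCBI Gene 58819), the cytosolic thioredoxin reductase, was at 29.8, 31.4 and 29.4 FPKM in the BPVB group and at 19.2, 19.6 and 22.1 FPKM in the sham group, again with no overlap. Its log2 fold change was 0.56 (95% interval 0.43 to 0.70, adjusted p = 1.5e-04, limma), a rise of 1.49-fold. Eid3 and other annotated loci lie within or across Txnrd1 in RefSeq, and without a strand setting their reads cannot be told apart. Txn1, the thioredoxin that this enzyme reduces, rose less (0.23, adjusted p = 0.0072, limma). Txnrd2 and Txn2, the mitochondrial reductase and thioredoxin, moved in the other direction. Txnrd2 fell from 14.0, 16.2 and 14.5 FPKM in the sham group to 9.74, 9.58 and 9.10 FPKM, and Txn2 from 179, 189 and 178 FPKM to 123, 130 and 130 FPKM. Prdx3, the mitochondrial peroxiredoxin, fell by 0.33 on the log2 scale (adjusted p = 1.8e-04, limma). All 9 atrial cardiomyocyte markers tested were called beside these falls, 7 of them lower, with a summed level of 16430 to 16873 FPKM in the BPVB group and 22294 to 22713 FPKM in the sham group and none at 0, and their part in the falls was not tested.

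Of the 16 thioredoxin and peroxiredoxin genes tested other than members, 8 were higher and 5 lower, with a median difference of 0.16 on the log2 scale. The largest rises were those of Txnip, an inhibitor of thioredoxin, at 698 to 721 FPKM against 431 to 440 FPKM, and of the sestrin Sesn3 (0.59). Txnrd3 was also called (0.43), but not without BPVB replicate 1 or 3 or sham replicate 1 or 3 (adjusted p = 0.051 to 0.09, limma). Prdx1, the cytosolic peroxiredoxin and an NRF2 target, was called lower by a small amount (-0.11, adjusted p = 0.024, limma), a call that was lost without BPVB replicate 1 or sham replicate 2 or 3 (adjusted p = 0.064 to 0.087, limma), with TPM (-0.07, adjusted p = 0.078) and with quantile normalization (-0.04, adjusted p = 0.3).

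The RefSeq promoters of the members, from 250 bases before to 50 bases after the annotated gene start on assembly GRCr8, were searched for the core of the antioxidant response element, TGACNNNGC, on both strands. Of the 9 members, 8 matched an entry by NCBI Gene number (all but Hmox1), with 9 promoters, as Txnrd1 has starts at separate places. The core lay in the second Txnrd1 promoter, 78 bases before the start, and in the promoter of Gclm, 172 bases before it, as well as in those of Mt1 and Mt2A. It was not found in this window for Nqo1, Gclc, Srxn1, Slc7a11 or the first Txnrd1 promoter, and 12.1% of the 33469 promoters in the table held it. The stretches of 60 bases around the matches in a gene that rose, Txnrd1, and one that was not called, Gclm, are given along the gene's strand, with the core in capitals, where it reads on the opposite strand. The Txnrd1 stretch is chr7:22755949-22756008 (minus strand) and the Gclm stretch chr2:213031937-213031996 (plus strand).
Txnrd1: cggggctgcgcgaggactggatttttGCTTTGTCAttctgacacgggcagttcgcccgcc
Gclm: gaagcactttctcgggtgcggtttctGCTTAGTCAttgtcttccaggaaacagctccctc
A match to these letters describes the sequence and shows no binding.

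Glutathione is made from cysteine, glutamate and glycine, and 3 of the members act at its entry. Slc7a11 (NCBI Gene 310392), the cystine-glutamate exchanger xCT, was the least expressed member and did not pass the filter. It had 0.0889, 0.125 and 0.0858 FPKM in the BPVB group (27, 37 and 29 fragments) and 0.0518, 0.0075 and 0.0148 FPKM in the sham group (14, 2 and 4 fragments). Every BPVB value lay above every sham value, and the ratio of means was 4.04. On log2(FPKM + 0.5) with no filter the difference was 0.19 and not called (adjusted p = 0.07, limma), as the pseudocount exceeds the level of the gene itself. With limma-voom on the recovered fragments, where 18.4% of 16414 genes were higher, the log2 fold change was 2.29 (95% interval 0.70 to 3.88, adjusted p = 0.02). With TPM, where Slc7a11 passed the filter, it was 0.37 and not called (adjusted p = 0.23, limma). Slc3a2, the heavy chain that carries xCT and several other amino acid transporters to the membrane, was expressed at a far higher level and rose from 43.8, 43.3 and 46.8 FPKM in the sham group to 64.4, 62.5 and 65.3 FPKM (log2 fold change 0.52, adjusted p = 2.5e-05, limma).

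Gclc (NCBI Gene 25283) and Gclm (NCBI Gene 29739) are the catalytic and the modifier subunit of glutamate-cysteine ligase, the rate-limiting enzyme of glutathione synthesis. Gclc was at 9.03, 8.77 and 8.21 FPKM in the BPVB group and 7.51, 9.54 and 8.06 FPKM in the sham group, with overlapping ranges, and its log2 fold change of 0.05 had a 95% interval of -0.16 to 0.27 (adjusted p = 0.7, limma). Gclm was at 22.6, 24.3 and 23.6 FPKM against 21.0, 22.5 and 21.4 FPKM. The Gclm ranges barely missed each other, and the log2 fold change of 0.12 did not pass (95% interval 0.00 to 0.23, adjusted p = 0.11, limma). Both intervals end well below the log2 fold change of 0.56 of Txnrd1. The FPKM of Gclm divided by that of Gclc gave 2.71 ± 0.19 for BPVB rats and 2.6 ± 0.22 for sham rats (mean ± SD of 3 each). A two-sided exact permutation test gave p = 0.6, where 3 rats against 3 can reach 0.1 at best.

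Further along the same route, Gss, which adds glycine, was not called (0.09, adjusted p = 0.36, limma), while Gsr, which reduces glutathione disulfide, rose from 16.7 to 19.6 FPKM in the sham group to 22.2 to 23.9 FPKM (0.36, adjusted p = 0.0041, limma). Of 22 tested genes of glutathione synthesis and use other than members, 8 were higher and 5 lower, and the median of the list was 0.12 (log2). Gpx2, an epithelial glutathione peroxidase and NRF2 target, showed the largest rise, at 5.08, 4.78 and 5.23 FPKM against 0.50, 1.65 and 0.831 FPKM. Mgst1 (0.79) and Gstt1 (0.61) followed among the glutathione transferases. Other transferases fell: Gstm1, itself an NRF2 target, by 0.73 and Mgst3 by 0.63 on the log2 scale. Ggt5, which cleaves extracellular glutathione conjugates, fell by 0.40 (adjusted p = 0.0065, limma).

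Nqo1 (NCBI Gene 24314) reduces quinones with a pair of electrons at once and is widely used to read out NRF2. It was at 14.3, 15.2 and 11.6 FPKM in the BPVB group and 12.0, 11.7 and 13.4 FPKM in the sham group. BPVB replicates 1 and 2 lay above all sham rats and BPVB replicate 3 below them all. The log2 fold change of 0.13 was not called (95% interval -0.09 to 0.36, adjusted p = 0.35, limma). Without BPVB replicate 3 it was 0.25 (adjusted p = 0.053, limma), and without BPVB replicate 2 it was 0.06 (adjusted p = 0.72, limma). Among 19 tested detoxification genes that are known NRF2 targets or close relatives, 7 were higher and 4 lower, with a median difference of -0.01 on the log2 scale. Aldh3a1, an aldehyde dehydrogenase, rose from 7.34 to 8.51 FPKM in the sham group to 16.2 to 20.1 FPKM (1.09), and aldehyde oxidase Aox1 (0.90) and Osgin1 (0.72) also rose. The conjugate exporter Abcc3 fell by 0.94, epoxide hydrolase Ephx1 by 0.77 and the quinone reductase Nqo2 by 0.49 on the log2 scale.

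NADPH feeds thioredoxin reductase, glutathione reductase and NQO1 alike. Of 11 genes that supply it, 3 rose: Pgd (0.43), Me1 (0.25) and Idh1 (0.25). The 2 that fell were Idh2, from 456 to 465 FPKM in the sham group to 285 to 307 FPKM (-0.62), and Me3 (-0.33). The part of the atrial cardiomyocyte markers, 7 of 9 of them lower, in these falls was not tested. Me2, a further malic enzyme that was picked out after its values were seen, had a log2 fold change of 0.30 (adjusted p = 0.054, limma) and was called higher with limma-voom (0.33, adjusted p = 0.0068). The median over the 11 was 0.03.

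Mt1 (NCBI Gene 24567) and Mt2A (NCBI Gene 689415) were the most abundant members. Mt2A was at 136, 138 and 131 FPKM in the BPVB group and 53.7, 58.8 and 65.5 FPKM in the sham group, with 1380 to 1495 and 489 to 598 fragments. All BPVB rats had at least 131 FPKM and no sham rat more than 65.5. The log2 fold change was 1.18 (95% interval 1.04 to 1.33, adjusted p = 2.2e-06, limma), the 230th largest rise of all tested genes. Mt1 was at 45.4, 52.8 and 40.3 FPKM in the BPVB group and 27.0, 28.4 and 31.8 FPKM in the sham group. These ranges were also apart, with a smaller difference: the log2 fold change was 0.65 (95% interval 0.43 to 0.87, adjusted p = 9.3e-04, limma). Mt2A exceeded Mt1 per unit of length in every rat, 2.99, 2.61 and 3.26 times in the BPVB group and 1.99, 2.07 and 2.06 times in the sham group (two-sided exact permutation test, p = 0.1, which is the least that this design can give). The genes are paralogs that lie next to each other on chromosome 19 of GRCr8. Their transcripts were not compared here and the sources used do not say how shared reads were treated, so the division of the level between them is uncertain. Each has under 400 counted bases (389 for Mt1 and 383 for Mt2A), so that 466 to 536 fragments stand behind Mt1 in the BPVB group and 250 to 295 in the sham group.

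The promoters of both genes are shown whole because they hold the letters of the motif known for MTF1. The metal response element cores TGCACNC and TGCGCNC, searched on both strands, were found 6 times in Mt1 and 4 times in Mt2A, and a core of the antioxidant response element was found once in each, 101 and 237 bases before the start. Of all 33469 promoters, 24.2% held at least 1 metal response element core, 0.439% at least 4 and 0.0388% at least 6. Of the other members with an entry, Gclm held 2 and the rest 0. The sequences run along the gene's strand, with all matched cores in capitals, at chr19:10832926-10833225 for Mt1 and chr19:10838659-10838958 for Mt2A (both on the minus strand, GRCr8).
Mt1: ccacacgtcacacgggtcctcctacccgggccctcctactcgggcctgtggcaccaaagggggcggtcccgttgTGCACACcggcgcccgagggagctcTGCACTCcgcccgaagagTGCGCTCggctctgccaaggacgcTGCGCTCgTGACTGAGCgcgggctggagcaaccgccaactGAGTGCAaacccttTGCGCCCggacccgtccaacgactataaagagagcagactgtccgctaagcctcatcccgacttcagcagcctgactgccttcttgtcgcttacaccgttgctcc
Mt2A: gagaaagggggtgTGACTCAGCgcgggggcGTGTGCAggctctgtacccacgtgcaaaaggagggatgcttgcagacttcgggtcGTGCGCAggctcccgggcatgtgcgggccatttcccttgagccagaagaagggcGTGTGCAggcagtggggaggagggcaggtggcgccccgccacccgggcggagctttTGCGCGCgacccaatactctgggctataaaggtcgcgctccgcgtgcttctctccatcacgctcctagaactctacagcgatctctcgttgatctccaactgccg
The metal response element cores began between 176 and 55 bases before the start in Mt1 and between 220 and 55 bases before it in Mt2A. The matches are a description of the sequence, and binding was not measured.

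**Figure D3:**
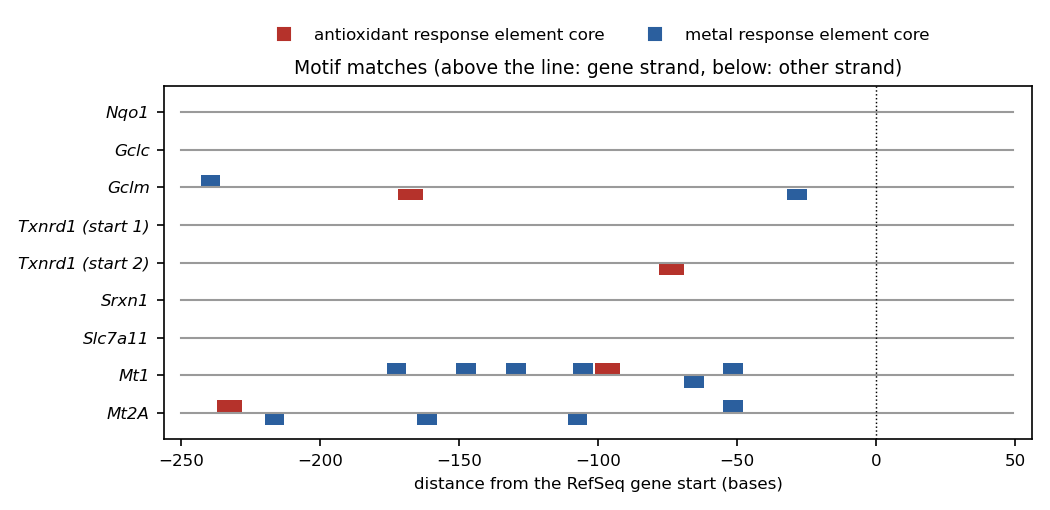
Positions of motif matches in the 9 RefSeq promoters of 8 members, in bases from the annotated start, with antioxidant response element cores in red and metal response element cores in blue, above the line on the gene's strand and below it on the other. Mt1 carries 6 metal response element cores and Mt2A 4, and the lines of Nqo1, Gclc, Srxn1 and Slc7a11 are empty.

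The third metallothionein in the table, Mt3, known from the brain, was scarce and variable: 0.997, 2.35 and 3.49 FPKM in the BPVB group and 4.92, 5.90 and 1.45 FPKM in the sham group. The log2 fold change of Mt3, -0.66, was not called (adjusted p = 0.32, limma), and without sham replicate 3 it was -1.20 (adjusted p = 0.043). The zinc exporter Slc30a1, which MTF1 induces together with the metallothioneins, was not called, at 13.0 to 15.3 FPKM in the BPVB group and a log2 fold change of 0.002. Of 17 tested genes of metal and zinc handling, 4 were higher and 0 lower, and the median of the list was 0.07 (log2). The zinc importers Slc39a4 (1.35, from 0.418 to 0.54 FPKM in the sham group) and Slc39a1 (0.37) rose. The copper ATPase Atp7a (0.35) lost its call without BPVB replicate 1 or 2 or sham replicate 1 or 2 (adjusted p = 0.083 to 0.12, limma), and without BPVB replicate 2 or sham replicate 1 the number of genes higher in this list was 2. The number lower was 1 without BPVB replicate 3 and 3 without sham replicate 3.

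Most regulators were not called. Nfe2l2, the NRF2 gene, was at 18.7, 16.8 and 16.8 FPKM in the BPVB group and 17.6, 17.2 and 18.8 FPKM in the sham group, with a log2 fold change of -0.03 (95% interval -0.18 to 0.11, adjusted p = 0.72, limma). Keap1 was at 16.8, 16.3 and 17.1 FPKM against 15.5, 14.5 and 15.5 FPKM, and its log2 fold change of 0.14 was not called (adjusted p = 0.082, limma). Neither Bach1 (0.09, adjusted p = 0.47), the repressor of Hmox1, nor Mtf1 (0.17, adjusted p = 0.41), at 1.26 to 1.98 FPKM over all libraries, was called by limma. NRF2 and KEAP1 act mainly through protein stability and MTF1 through zinc, none of which RNA-seq measures.

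Of the 11 regulators, 3 were higher and 1 lower, and the median log2 fold change was 0.14. Sqstm1, which encodes p62, a NRF2 target that in turn draws KEAP1 into autophagy, rose from 104, 105 and 105 FPKM in the sham group to 184, 178 and 179 FPKM (0.78, adjusted p = 1.9e-07, limma). Nfe2l1, a relative of NRF2 that controls proteasome genes, rose by 0.37 (adjusted p = 7.4e-05, limma). Among the small MAF partners Maff rose (0.46, adjusted p = 0.0051, limma), while Mafg (0.11) and Mafk (0.20, adjusted p = 0.057, limma) were not called, and Mafk was called with limma-voom (0.21, adjusted p = 0.0037), with TPM (0.24, adjusted p = 0.034), with a filter at a mean of 1 FPKM (0.20, adjusted p = 0.05) and without BPVB replicate 2 (0.25, adjusted p = 0.044). Cul3 was not called (0.01), and Rbx1, the RING subunit of the same ligase, was called lower (-0.15, adjusted p = 0.026, limma). The Rbx1 call was lost without BPVB replicate 1 or 3 or sham replicate 1 or 3 (adjusted p = 0.057 to 0.089, limma), which leaves 0 regulators lower.

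Enzymes that remove superoxide and peroxide outside the thiol systems were not called. Sod1 (-0.12), Sod2 (-0.06), Sod3 (0.13) and Cat (0.05) had adjusted p of 0.095 to 0.19 (limma), with Cat between 101 and 107 FPKM in every library. Of 15 oxidant-producing enzymes, 6 were higher and 3 lower, with a median difference of 0.20 on the log2 scale. Cybb (0.95), a subunit of the phagocyte oxidase, and Maob (0.74), a mitochondrial amine oxidase, rose. Ncf1 of the same phagocyte oxidase fell by 0.43 and Nos3, the endothelial nitric oxide synthase, by 0.38, and Nos2 (-0.37) lost its call whichever of the 6 libraries was left out (adjusted p = 0.057 to 0.094, limma).

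ATF4, which answers amino acid shortage and endoplasmic reticulum stress, shares targets such as Slc7a11 with NRF2. Of 12 genes of that response, 6 were higher and 1 lower, and the median of the list was 0.29 (log2). Trib3 (1.06), Asns (1.02) and Atf3 (0.74) rose most, and Shmt2 fell by 0.32. Glucocorticoids induce metallothioneins, and of 9 genes known to answer them 2 were higher and 5 lower, with a median of -0.24. The 2 that rose were Cdkn1a, the p53 target p21, from 4.92 to 5.13 FPKM in the sham group to 29.2 to 32.4 FPKM (2.51), and the kinase Sgk1 (0.64). The transcription factors Zbtb16 (-0.88), Klf9 (-0.63) and Per1 (-0.62) fell.

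Over all 11 pathway lists, 54 of 157 tested genes were higher, 28 were lower and 75 were not called, with a median log2 fold change of 0.09. The members' median of 0.61 lay above that of each of these lists, the next being 0.29 for the ATF4 genes, and below the 0.70 of the macrophage and the 2.68 of the alveolar type 2 markers.

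**Figure D4:**
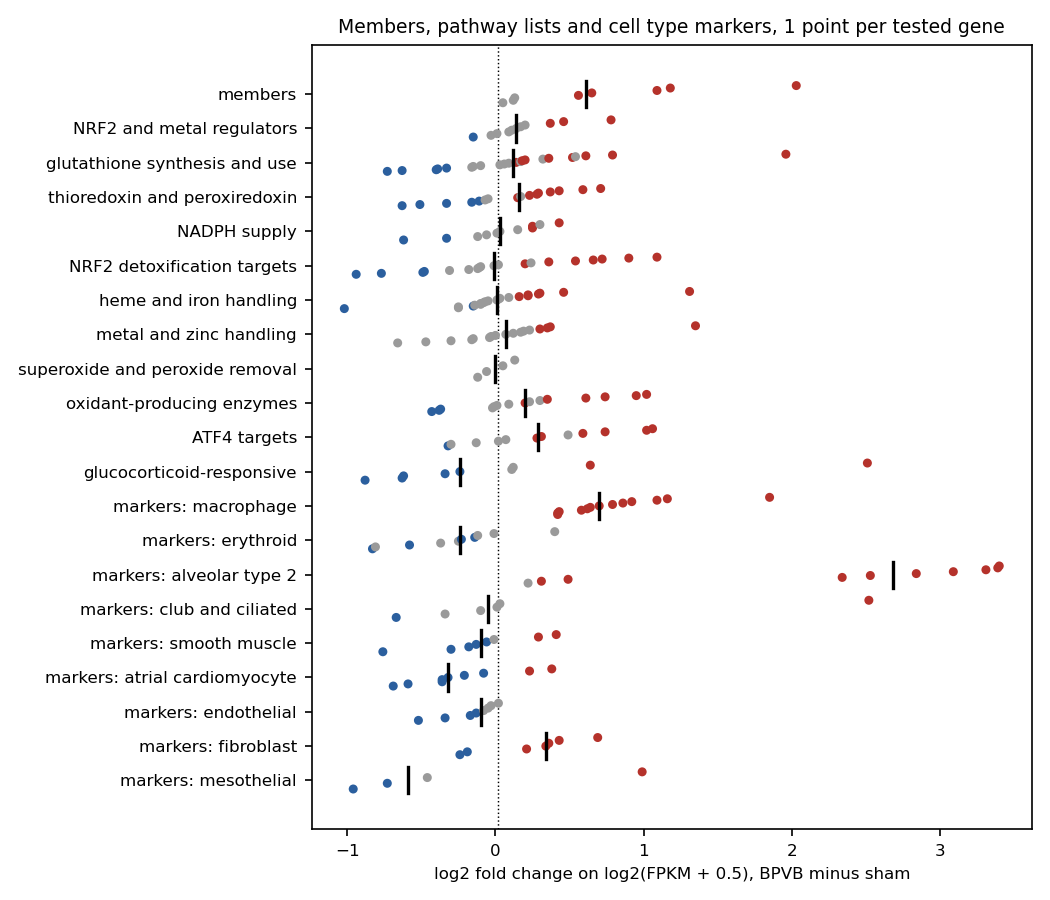
Log2 fold change of BPVB minus sham for each tested gene of the members, 11 pathway lists and 9 marker lists, with red for higher, blue for lower and grey for genes not called, black bars for the list medians and a dotted line for the median of all tested genes (0.02). Every pathway list holds genes on both sides of the dotted line, while the macrophage and alveolar type 2 markers lie on its right.

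Fibroblast markers were mostly higher (5 of 7, with 2 lower), Col1a1 among them at 0.36. Endothelial (0 of 8 higher, 4 lower) and smooth muscle markers (2 of 8 higher, 5 lower) were mostly lower or not called, with Pecam1 at -0.17 and Acta2 at -0.18. Myh6 of atrial muscle fell by 0.36. Among 6 tested airway markers, the club cell gene Scgb1a1 was higher (2.52) and 1 was lower, and Foxj1 and Scgb3a2 had no more than 1 fragment in any library of either group. The erythroid gene Hba-a2 (-0.37) was called without BPVB replicate 3 (-0.49, adjusted p = 0.042, limma) and without sham replicate 2 (-0.54, adjusted p = 0.0067, limma), whereas the call of Alas2 (-0.14) was lost when any 1 of 5 libraries was left out (adjusted p = 0.052 to 0.097, limma), sham replicate 2 being the exception. Of 4 mesothelial markers 1 was higher and 2 were lower, and the call of Msln (-0.73) was lost without BPVB replicate 2 or 3 (adjusted p = 0.062 to 0.074, limma). The part of these markers in the members' levels was not tested.

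Within the BPVB group, replicate 3 had the lowest FPKM for 7 of the 9 members, Hmox1, Nqo1 and Mt1 among them, and replicate 2 the highest for 6. Over all tested genes these libraries were lowest for 34.7% and highest for 31.5%. The rise of the 5 called members did not rest on 1 rat: leaving out each library in turn kept all 5 calls, and the log2 fold change over all alternatives stayed between 1.92 and 2.15 for Hmox1, 1.11 and 1.26 for Mt2A, 0.98 and 1.24 for Srxn1, 0.55 and 0.74 for Mt1, and 0.53 and 0.63 for Txnrd1.

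The gene annotations in the table placed 7 members, all but the metallothioneins, under the GO term for response to oxidative stress. Of the 131 tested genes with that term, 33 were higher and 24 lower, with a median difference of 0.02 on the log2 scale. In the KEGG annotation, ferroptosis was shared by 4 members (Hmox1, Gclc, Gclm and Slc7a11) and mineral absorption by 3 (Hmox1, Mt1 and Mt2A).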

How the data were processed

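Bulk RNA-seq of 3 BPVB and 3 sham libraries was used, grouped by the sample labels. The authors deposited FPKM, 1 value per gene and rat, for 17833 genes. The paper's methods name fastp, HISAT and HTSeq-count, and the submitters' processing notes name HISAT2 2.0.5, StringTie 1.3.3b, featureCounts 1.5.0-p3 and DESeq2 1.20.0. Which of these made the table, the genome build, the annotation and the strand setting are not given in the sources used here, and the library kit is named differently in the labels (NEBNext Ultra) and the paper (VAHTS Universal V6). Table columns were matched to rats by their initial and number, and the number of per-sample columns left out was 0.

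The comparison used limma 3.58.1 in R 4.3.3 (lmFit, eBayes with a trend) on log2(FPKM + 0.5), for the genes whose mean FPKM reached 0.1, with Benjamini-Hochberg adjustment. This differs from the count test of the study because FPKM are not counts, and a fold change on this scale understates the change of low genes. DEGs also had an absolute log2 fold change above 1. Fragments were recovered from the whole-number steps of the FPKM in all 17833 genes (tolerance 1e-09) and used for depth and for limma-voom, on genes with 10 or more fragments summed over the 6 libraries. Precision covers counting error and the spread between rats only, since several fragments may stem from 1 molecule. The procedure was tested on simulated data with the same spread setting for all genes and large changes only. That test does not cover small changes, or changes of scarce genes. Python 3.11.15 with scipy 1.17.1, pandas 2.3.3, numpy 2.4.6 and matplotlib 3.10.9 served for the rest. Promoter sequences are those of RefSeq, GRCr8.

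The members, pathway lists and marker lists were chosen with earlier results of these data known, so their counts are descriptions. Named genes are the members, their regulators and fixed partners, up to 3 rises and 3 falls per list among called genes whose mean FPKM reached 1, and the leading markers, apart from a few that are not reported here. Alternatives were 2 pseudocounts, 2 filters, 3 scalings, the replicate block, robust eBayes, limma-voom and leaving out each library.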

Additional observations from a re-analysis of the deposited data

How the results depend on the processing

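Under 16 other settings, the number of members higher was 5, or 6 with limma-voom, which added Slc7a11, and the number lower was 0. The number past 2-fold was 2 to 4. Of the 157 pathway genes, 48 to 62 were higher and 23 to 33 lower. The FPKM depth limits Slc7a11, with 2 to 37 fragments a library, and Mt3, and 3 rats a group allow no exact p under 0.1.

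Values close to 0 changed sign, none of them called. Leaving out single libraries gave log2 fold changes from -0.02 to 0.15 for Gclc, -0.08 to 0.001 for Nfe2l2, -0.02 to 0.04 for Cul3, -0.09 to 0.07 for Blvrb and -0.06 to 0.05 for Slc30a1, and a log2 difference of the Gclm to Gclc ratio from -0.00562 to 0.121 (0.06 with all libraries). Median of ratios gave -0.02 for Cul3, Blvrb and Slc30a1, quantile normalization -0.02 for Slc30a1, and limma-voom -0.002 for Slc30a1. The cause was not tested.

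Keap1 was called with TPM (0.17, adjusted p = 0.042, limma), as was Cat (0.09), Sod1 with limma-voom (-0.12) and Sod2 with median of ratios (-0.09). Fth1 was called lower with quantile normalization, limma-voom and without BPVB replicate 2. The calls of Rbx1, Alas1, Alas2 and Nos2 were lost with TPM and that of Atp7a with no filter and with quantile normalization, and Hba-a2 was called lower with quantile normalization and limma-voom. TPM raised the number of regulators higher from 3 to 5. In the heme and iron list, the number lower was 1 with TPM and without BPVB or sham replicate 1, and 4 with quantile normalization and limma-voom, against 2. In the metal and zinc list it was 3 with median of ratios and 2 with quantile normalization and the replicate block, against 0. All DEGs, in both directions, numbered 496, and 901 with a pseudocount of 0.1, 325 with a pseudocount of 1 and 1122 with limma-voom.

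The deviations of rats of the same number in both groups correlated at 0.03, 0.01 and 0.02 over all tested genes (other pairs -0.02 to 0.01). A correlation over all genes cannot exclude a shared litter or batch that touches some of them. The main comparison treated the groups as unpaired. With the replicate block 5 members were higher, the calls of Rbx1, Txnrd3, Atp7a and Nos2 were lost, Hba-a2 was called lower, and over all genes 2466 were higher and 2073 lower, against 2605 and 2170.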
